A study of Mus musculus with 15 samples.

Results

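The growth factor receptors of dendritic cells (DCs) considered here were 6 genes, Flt3, Kit, Csf1r, Csf2ra, Csf2rb and Csf2rb2, of 18194 genes with a usable probe set on an Affymetrix mouse expression array. They were chosen by name, and each was read from those of its probe sets whose annotation gives that symbol alone. Where a gene had several, the brightest on average over the 15 arrays stood for it. All 6 genes passed the filter on dim signal, as did 13629 genes in all. Values are log2 signals, so a difference of 1 is 2-fold, and levels are not compared between genes because probe sets differ in brightness.

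The arrays measured DCs sorted from mouse thymus and spleen, with 3 arrays in each of 5 groups. The groups were thymus CCR7+ and thymus CCR7- cells of untreated mice, spleen CCR7+ cells of mice that had received 10 µg polyI:C into the peritoneum 18 h before organ harvest, and spleen CCR7+ and spleen CCR7- cells of untreated mice. PolyI:C is a synthetic double-stranded RNA that mimics viral infection. All cells were sorted as CD11c+ CD317- CD172a-, with CD117+ CCR7- taken as immature and CD117- CCR7+ as mature. XCR1, in the name of every sample, was not among the gates given. The labels used here give no strain, age or sex of the mice and do not say whether replicates were separate animals, pools or days, so the p-values measure only the spread between these arrays. The spleen titles carry a set name that the thymus titles lack, so tissue and set cannot be told apart.

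Flt3, Kit and Csf1r are receptor tyrosine kinases. Flt3 binds Flt3 ligand and sustains the production of DCs from bone marrow progenitors and their numbers in tissues. Kit, or CD117, is the receptor for stem cell factor, and Csf1r is the receptor for M-CSF and IL-34, best known from monocytes and macrophages. Csf2ra encodes the chain that binds GM-CSF, which signals only together with the common beta chain encoded by Csf2rb. The common beta chain also serves the IL-3 and IL-5 receptors, while its close relative Csf2rb2, found in mice, serves the IL-3 receptor only.

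Cell identity was checked first. Itgax (CD11c, gated positive) read 6.14 to 6.46 in thymus CCR7+ and 9.33 to 9.56 in thymus CCR7- cells. In spleen it read 4.96 to 6.49 in polyI:C CCR7+, 7.98 to 9.19 in untreated CCR7+ and 9.61 to 9.91 in CCR7- cells. Bst2 (CD317, gated negative) read 10.3 to 11.1 in thymus. In spleen Bst2 read 11.6 to 12.1 in polyI:C CCR7+, 9.0 to 9.4 in untreated CCR7+ and 8.5 in CCR7- cells. Sirpa (CD172a, gated negative) read 6.04 to 7.17 on all arrays. The array mean of the 9 measured genes of a list of 10 XCR1+ DC genes ran from 8.11 to 8.39 in thymus CCR7+ cells and from 11.48 to 11.66 in thymus CCR7- cells. In spleen it ran from 8.94 to 9.63 in polyI:C CCR7+ cells and from 9.62 to 10.78 in untreated CCR7+ cells, against 11.98 to 12.10 in CCR7- cells. Of these 9 genes, 8 fell and 1 rose in CCR7+ cells of thymus and likewise of untreated spleen, and 7 fell after polyI:C, so the name of the cells is borne out by transcripts in the CCR7- groups more than in the CCR7+ groups. Markers of T cells moved with thymic maturation: the mean of 8 measured genes of 9 ran from 6.47 to 7.51 in CCR7+ and from 5.11 to 5.82 in CCR7- thymus cells, and 6 of 7 tested genes rose. The mean of 4 measured B cell markers of 5 ran from 5.70 to 7.31 in CCR7+ and from 5.20 to 5.62 in CCR7- thymus cells, and from 6.90 to 8.10 in untreated CCR7+ against 5.80 to 6.22 in CCR7- spleen cells. Granulocyte markers, 6 measured of 7, averaged 4.83 to 5.05 in polyI:C CCR7+ against 4.15 to 4.46 in CCR7- spleen cells, with 1 of 5 tested genes higher, and NK cell markers, 4 measured of 5, averaged 4.72 to 5.26 against 4.21 to 4.49, with 1 of 3 higher. Mast cell and progenitor markers stayed between 4.43 and 5.05 on all arrays, with 0 of 3 tested genes called in maturation. Plasmacytoid DC markers, all 7 measured, averaged 6.682 to 8.125 over all arrays. Thymic epithelium and stroma markers, 7 measured, averaged 5.365 to 5.687 in thymus and 4.558 to 5.084 in spleen. The part of all these cells in the results below was not tested. The untreated spleen CCR7+ arrays were the least alike of any group, with mean correlations to the rest of their group of 0.964 to 0.971, against 0.980 to 0.990 elsewhere. The changes of Kit only restate the CD117 gate: its log2 signal was 8.22, 8.25 and 8.01 in thymus CCR7+ cells and 11.25, 10.10 and 10.69 in thymus CCR7- cells. It was 7.89, 9.15 and 7.95 in polyI:C CCR7+, 8.46, 9.15 and 8.23 in untreated CCR7+ and 11.49, 11.07 and 11.18 in CCR7- spleen cells. Kit is left out of every count below.

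Mature DCs carried more transcript of both beta chains in all 3 settings, and less of 1 or 2 of the other receptors. In thymic maturation Csf2rb and Csf2rb2 rose and Csf1r fell. In untreated spleen Csf2rb and Csf2rb2 rose and Flt3 fell, and in spleen after polyI:C Csf2rb and Csf2rb2 rose while Flt3 and Csf2ra fell. A call here is a Benjamini-Hochberg adjusted p under 0.05 from limma over all 13629 tested genes. In thymus 2 of the 5 receptors were called higher and 1 lower, where 16.8% of all tested genes were called higher, 20.4% lower and 37.3% in either direction. In untreated spleen 2 were called higher and 1 lower, against 12.3% of all genes higher, 24.1% lower and 36.5% in either direction. After polyI:C 2 were called higher and 2 lower, against 18.4% of all genes higher, 28% lower and 46.4% in either direction. With so many genes changing and only 5 receptors, these counts are no result about the family, and the values of each gene are the data. Both splenic comparisons use the same CCR7- arrays. In bulk RNA a change in signal per cell and a change in the share of cells that carry the transcript cannot be told apart.

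**Figure D1:**
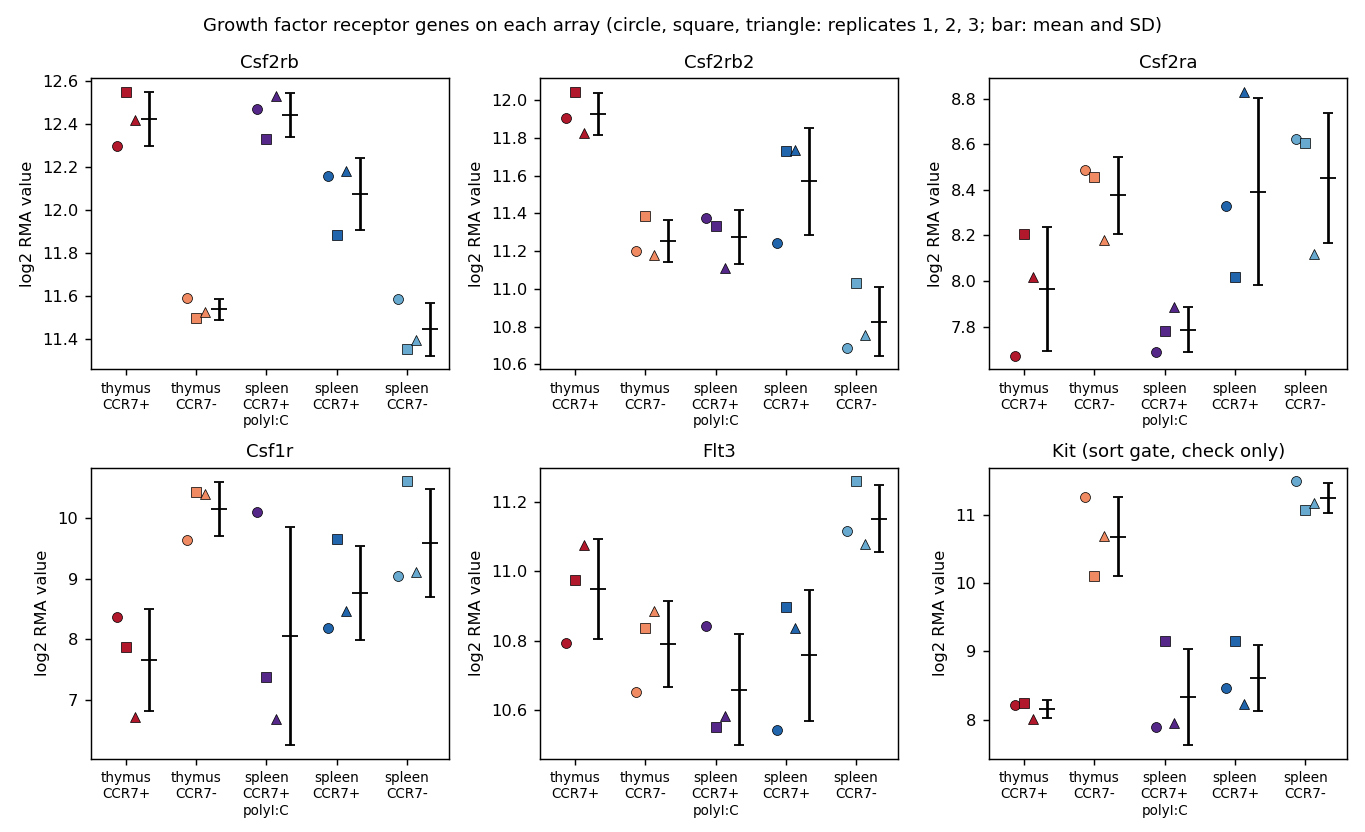
Log2 signal of the 6 receptor genes on each of the 15 arrays (y axis), in 5 groups of 3 (x axis), points being arrays and bars the group mean and SD. Csf2rb and Csf2rb2 sit higher on every CCR7+ array than on any CCR7- array of the same tissue. The 3 spleen CCR7- arrays are the highest in Flt3, the lowest of them level with the top thymus CCR7+ array at 11.08. The polyI:C arrays of Csf1r spread from 6.68 to 10.10.

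Csf2rb, the common beta chain, had log2 signals of 12.30, 12.55 and 12.42 in thymus CCR7+ cells, against 11.59, 11.50 and 11.53 in thymus CCR7- cells. In spleen it had 12.47, 12.33 and 12.53 in polyI:C CCR7+ and 12.16, 11.88 and 12.18 in untreated CCR7+ cells, against 11.59, 11.35 and 11.40 in CCR7- cells. No array of a CCR7+ group fell within the range of CCR7- cells of its tissue. The log2 fold change was 0.89 in thymus (SE 0.13, adjusted p = 7.65e-05), 0.63 in untreated spleen (SE 0.13, adjusted p = 0.00155) and 1.0 after polyI:C (SE 0.13, adjusted p = 1.79e-05). These are 1.85-fold, 1.55-fold and 2.00-fold. The rise of Csf2rb in thymus did not differ detectably from that in untreated spleen (difference 0.26, 95% confidence interval -0.13 to 0.65, adjusted p = 0.551). A dimmer probe set of Csf2rb, 1421326_at, gave 0.91 in thymus (adjusted p = 0.031), 0.44 in untreated spleen (adjusted p = 0.298) and 0.92 after polyI:C (adjusted p = 0.0237), so with it the rise in untreated spleen was not called. The untreated spleen CCR7+ array with the highest B cell mean, 8.10, had the lowest Csf2rb of its group, 11.88. Its Csf2rb2 was 11.73, beside 11.24 and 11.74 on the other arrays of the group. After polyI:C the B cell mean was 5.78 to 6.42, against 5.80 to 6.22 in CCR7- spleen cells. The part of B cells in the rise of either beta chain was not tested. In thymus the CCR7+ array with the highest T cell mean, 7.51, and the highest B cell mean, 7.31, also had the highest Csf2rb, 12.55, and the highest Csf2rb2, 12.05.

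Csf2rb2, the beta chain of the mouse IL-3 receptor, had log2 signals of 11.91, 12.05 and 11.83 in thymus CCR7+ cells, against 11.20, 11.38 and 11.18 in thymus CCR7- cells. In spleen it had 11.38, 11.34 and 11.11 in polyI:C CCR7+ and 11.24, 11.73 and 11.74 in untreated CCR7+ cells, against 10.69, 11.03 and 10.76 in CCR7- cells. Each CCR7+ group lay wholly above the CCR7- cells of its tissue. The log2 fold change was 0.67 in thymus (SE 0.16, adjusted p = 0.00358), 0.74 in untreated spleen (SE 0.16, adjusted p = 0.002) and 0.45 after polyI:C (SE 0.16, adjusted p = 0.0312). The call after polyI:C was lost when any of 4 single arrays was left out, spleen CCR7- replicate 1 or 3 or polyI:C replicate 1 or 2, with adjusted p of 0.0781 to 0.114. By group means the order differed from that of Csf2rb. PolyI:C cells shared the top of Csf2rb with thymus CCR7+ cells, 12.44 and 12.42 with overlapping arrays, whereas for Csf2rb2 their mean of 11.27 stood below 11.93 in thymus CCR7+ cells, without overlap, and below 11.57 in untreated spleen CCR7+ cells, with overlap. For Csf2rb2 thymus CCR7+ arrays lay above untreated spleen CCR7+ arrays and thymus CCR7- arrays above spleen CCR7- arrays, while the groups between overlapped. For Csf2rb the untreated spleen CCR7+ group stood apart from its neighbours on both sides, thymus CCR7+ above it and thymus CCR7- below it.

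The beta chain genes are close copies that lie beside each other, with 0 genes between them in RefSeq, so signal of 1 could be read in part by probes of the other. The 1 probe set annotated to both, 1450200_s_at, was dim, between 5.61 and 6.27 on all arrays, and none of its changes was called (0.10 in thymus, 0.15 in untreated spleen and 0.11 after polyI:C). The RefSeq promoter tables (GRCm38.p6) held the stretch from 250 bases before to 50 after the start for 4 of the 6 genes. Those of Csf2rb2 and Csf2ra are printed, a beta chain gene called higher beside the gene of the GM-CSF binding chain, which was not. Csf2rb2 lies at chr15:78305672-78305971 on the minus strand and Csf2ra at chr19:61228369-61228668 on the minus strand, both read 5′ to 3′ along the gene. Capitals mark the letters GAGGAA, on either strand, a core sequence bound by PU.1, the myeloid transcription factor encoded by Spi1.
Csf2rb2: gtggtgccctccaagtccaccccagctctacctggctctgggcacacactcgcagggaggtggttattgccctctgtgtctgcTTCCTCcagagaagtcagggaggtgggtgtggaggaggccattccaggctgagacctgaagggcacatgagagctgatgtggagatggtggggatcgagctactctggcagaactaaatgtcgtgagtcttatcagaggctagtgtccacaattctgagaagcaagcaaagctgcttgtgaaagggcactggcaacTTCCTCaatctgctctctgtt
Csf2ra: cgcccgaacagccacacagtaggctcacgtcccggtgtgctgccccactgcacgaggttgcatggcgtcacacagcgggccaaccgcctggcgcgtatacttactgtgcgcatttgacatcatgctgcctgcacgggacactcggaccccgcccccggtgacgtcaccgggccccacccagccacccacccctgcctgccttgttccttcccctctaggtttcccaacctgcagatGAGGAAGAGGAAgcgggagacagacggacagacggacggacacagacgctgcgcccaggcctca
Counted from the start, the matches begin at -167 and 30 in Csf2rb2, both on the opposite strand and so printed as TTCCTC, and at -14 and -8 in Csf2ra. The other motifs searched on both strands were TTCNNNGAA, bound by STAT factors, with a match at -15 in Csf2rb2, and GGNNNTTCC, of the NF-kappaB type, with a match at -131 in Csf2rb2, and none of the matches overlap. Csf2ra held neither of these, and the window of Flt3 held none of the 3. Among 32851 windows of this length GAGGAA occurred in 28.3%, TTCNNNGAA in 8.3% and GGNNNTTCC in 18.5%. A match describes letters in the window only.

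Csf2ra, which encodes the GM-CSF binding chain, was not called higher with its partner Csf2rb in any setting. It had log2 signals of 7.67, 8.21 and 8.02 in thymus CCR7+ cells, against 8.49, 8.46 and 8.18 in thymus CCR7- cells. In spleen it had 7.69, 7.78 and 7.89 in polyI:C CCR7+ and 8.33, 8.02 and 8.83 in untreated CCR7+ cells, against 8.62, 8.61 and 8.12 in CCR7- cells. Only the polyI:C arrays lay wholly below the CCR7- arrays of their tissue, and they also lay below all untreated CCR7+ spleen arrays. Csf2ra fell after polyI:C (log2 fold change -0.66, SE 0.21, adjusted p = 0.0179), and the changes in thymus (-0.41, 95% confidence interval -0.86 to 0.04, adjusted p = 0.152) and untreated spleen (-0.06, -0.51 to 0.39, adjusted p = 0.863) were not called. The fall rests on 1 probe set: a dimmer one, 1420704_at, gave -0.02 after polyI:C (adjusted p = 0.954), and the call was also lost on leaving out spleen CCR7- replicate 1 (adjusted p = 0.0723), spleen CCR7- replicate 2 (adjusted p = 0.0652) or polyI:C replicate 1 (adjusted p = 0.0585). In untreated spleen 1420704_at gave 0.42 (95% confidence interval -0.12 to 0.95, adjusted p = 0.227). Its signal in mature cells differed by tissue, with 7.12, 6.62 and 6.93 in thymus CCR7+ and 8.46, 7.24 and 7.79 in untreated spleen CCR7+ cells. That log2 fold change was -0.95 (SE 0.25, adjusted p = 0.0276).

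**Figure D2:**
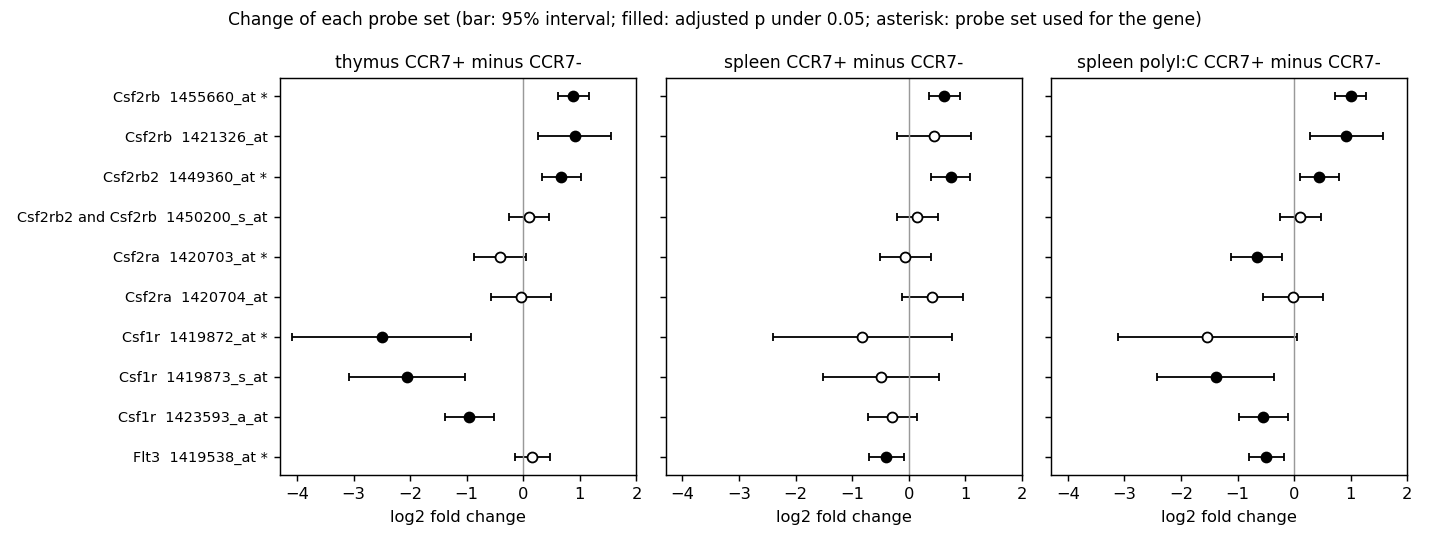
Log2 fold changes of every probe set of the 5 receptor genes other than Kit in the 3 maturation comparisons (x axis), each probe set fitted as a feature of its own (y axis), with 95% confidence intervals as bars and filled points where adjusted p was under 0.05. The 3 probe sets of Csf1r lie below 0 in all 3 comparisons, the dim probe set shared by the beta chain genes lies near 0, and those of Csf2ra part after polyI:C (-0.66 and -0.02).

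Csf1r, the M-CSF receptor, was lower in thymus CCR7+ cells. Its log2 signals were 8.37, 7.87 and 6.73 in thymus CCR7+ cells, against 9.64, 10.43 and 10.39 in thymus CCR7- cells. In spleen they were 10.10, 7.39 and 6.68 in polyI:C CCR7+ and 8.18, 9.66 and 8.47 in untreated CCR7+ cells, against 9.05, 10.61 and 9.11 in CCR7- cells. The thymus groups did not overlap, whereas in spleen both CCR7+ groups overlapped the CCR7- cells and the polyI:C arrays spread from 6.68 to 10.10. The log2 fold change in thymus was -2.50, or 5.66-fold lower (SE 0.73, adjusted p = 0.0143). It was -0.82 in untreated spleen (95% confidence interval -2.40 to 0.75, adjusted p = 0.424) and -1.54 after polyI:C (-3.11 to 0.04, adjusted p = 0.103). The difference between the thymic and the untreated splenic change, -1.68, was not called (-3.90 to 0.55, adjusted p = 0.481), so the thymic and splenic changes are not shown to differ. Without thymus CCR7+ replicate 3 the thymic call was lost, at -2.04 (adjusted p = 0.0696), and without polyI:C replicate 1 the change after polyI:C was called, at -2.56 (adjusted p = 0.0026).

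The other probe sets of Csf1r moved the same way. Probe set 1419873_s_at gave 6.62, 6.41 and 6.03 in thymus CCR7+ against 8.20, 8.57 and 8.45 in thymus CCR7- cells (log2 fold change -2.05, SE 0.48, adjusted p = 0.00387), and -1.39 after polyI:C (adjusted p = 0.0301). Probe set 1423593_a_at, close to the dim end, gave 4.86, 4.89 and 5.03 in thymus CCR7+ against 5.87, 6.16 and 5.60 in thymus CCR7- cells (-0.95, SE 0.20, adjusted p = 0.00198), and -0.54 after polyI:C (adjusted p = 0.042). Neither was called in untreated spleen. Because macrophages carry Csf1r, a list of 13 macrophage and monocyte markers, 11 of them measured, was set beside it. Its mean was 6.39, 6.43 and 5.93 in thymus CCR7+ cells and 5.94, 5.96 and 6.04 in thymus CCR7- cells, and 5 of its 11 genes rose and 1 fell there, so it did not move down with Csf1r in thymus. In spleen its mean was 6.75, 6.15 and 6.13 in polyI:C CCR7+ and 6.30, 6.83 and 6.24 in untreated CCR7+ cells, against 6.37, 6.91 and 6.65 in CCR7- cells. The array with the most Csf1r was also the array with the highest macrophage mean in 3 of 5 groups, which were the 3 spleen groups. This match was not particular to macrophage markers. A list of 7 CD172a+ DC markers, 6 of them measured, peaked on the same 3 spleen arrays. Its means there were 6.01 after polyI:C, 6.18 in untreated CCR7+ and 6.06 in CCR7- cells. It also peaked, at 5.715, on the thymus CCR7- array with the most Csf1r, but not so in thymus CCR7+ cells. The plasmacytoid DC mean peaked with Csf1r in thymus CCR7-, untreated spleen CCR7+ and spleen CCR7- cells. The part of any of these cells in the spread of Csf1r was not tested.

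**Figure D3:**
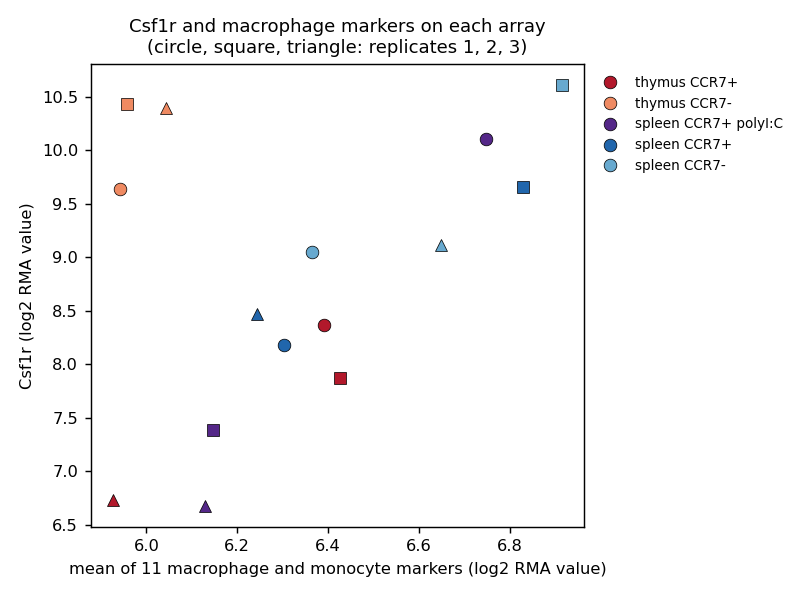
Csf1r log2 signal (y axis) against the mean log2 signal of 11 macrophage and monocyte markers (x axis), each point being 1 array in the colour of its group. The polyI:C array with Csf1r at 10.10 has the highest marker mean of its group, 6.75, while the thymus CCR7- arrays, between 9.64 and 10.43 in Csf1r, have marker means of only 5.94 to 6.04.

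Flt3, the receptor that sustains DC numbers, fell slightly in spleen and was not called in thymus. Its log2 signals were 10.79, 10.97 and 11.08 in thymus CCR7+ cells, against 10.65, 10.84 and 10.89 in thymus CCR7- cells. In spleen they were 10.84, 10.55 and 10.58 in polyI:C CCR7+ and 10.54, 10.90 and 10.84 in untreated CCR7+ cells, against 11.12, 11.26 and 11.08 in CCR7- cells. The thymus groups overlapped, and the spleen CCR7- arrays lay above both CCR7+ spleen groups. The log2 fold change was 0.16 in thymus (95% confidence interval -0.15 to 0.46, adjusted p = 0.446), -0.39 in untreated spleen (SE 0.14, adjusted p = 0.0418) and -0.49 after polyI:C (SE 0.14, adjusted p = 0.0101), so the falls were 1.31-fold and 1.41-fold. The fall in untreated spleen lost its call under 10 of 18 other settings, with adjusted p between 0.0225 and 0.164 over all 18, and the one after polyI:C kept it under all 18. The thymic minus the untreated splenic change was 0.55 (0.12 to 0.98, adjusted p = 0.181) and was not called, nor were any of the other 4 receptors in that test, in which 3.18% of all genes were called. A further fit used the replicate numbers as a block within immature and within untreated mature cells of both tissues, where they were taken to pair arrays. With this block 7.26% of all genes and 0 receptors were called, and Flt3 had adjusted p = 0.0904 (0.16 to 0.94).

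Between mature groups 1 receptor was called, in 1 of the 3 pairs. None of the 5 was called between polyI:C and untreated spleen CCR7+ cells, where 18.2% of all genes were. Csf2rb was higher on all polyI:C arrays, by 0.37 (0.09 to 0.65, adjusted p = 0.0628), and Csf2ra was lower on all of them, by a log2 difference of -0.61 (-1.06 to -0.15, adjusted p = 0.0609), which became -0.79 with adjusted p = 0.022 without untreated spleen CCR7+ replicate 2. Csf2rb2 had -0.30 (-0.64 to 0.04, adjusted p = 0.235), and was called at -0.46 (adjusted p = 0.0459) without untreated spleen CCR7+ replicate 1. Between thymus CCR7+ and polyI:C spleen CCR7+ cells, where 24.1% of all genes were called, Csf2rb2 was the receptor called, higher in thymus by 0.65 (SE 0.16, adjusted p = 0.00788) with no overlap of the arrays. Csf2rb in the same pair differed by -0.02 (-0.30 to 0.26, adjusted p = 0.926). Between thymus and untreated spleen 0 receptors were called in mature cells, against 12.2% of all genes, and 0 in immature cells, against 8.16%. With the same block 19.8% and 12.1% of all genes were called and again 0 receptors. In immature cells Csf2rb2 was higher on every thymus array, by 0.43 (0.09 to 0.77, adjusted p = 0.138, and 0.0714 with the block), and Flt3 was lower on every thymus array, with -0.36 (-0.66 to -0.06, adjusted p = 0.168, and 0.0936 with the block).

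Of the ligands of these receptors, 3 were too dim to test. Of 7 ligand genes 6 had a probe set and 3 passed the filter. Csf1, which encodes M-CSF, rose in all 3 settings, so that thymus CCR7+ cells had more Csf1 and less Csf1r transcript. It averaged 7.42 ± 0.22 in thymus CCR7+ and 5.55 ± 0.39 in thymus CCR7- cells, and 6.81 ± 0.20 in polyI:C CCR7+ and 7.30 ± 0.03 in untreated CCR7+ against 5.22 ± 0.06 in CCR7- spleen cells (SD, n = 3 each). The log2 fold change of Csf1 was 1.87 in thymus (SE 0.18, adjusted p = 1.89e-06), 2.08 in untreated spleen (SE 0.18, adjusted p = 1.35e-06) and 1.59 after polyI:C (SE 0.18, adjusted p = 6.26e-06). Kitl, the Kit ligand, and Il34, the other ligand of Csf1r, were tested and not called. Csf2, Il3 and Il5, which encode GM-CSF, IL-3 and IL-5, did not pass the filter, and Flt3l had no usable probe set.

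Among 5 partner and related receptors 2 rose in thymus, 0 in untreated spleen and 1 after polyI:C, with none lower. Of all tested genes 16.8%, 12.3% and 18.4% were called higher and 20.4%, 24.1% and 28% lower in that order. Il3ra, the binding chain of the IL-3 receptor and thus the partner of both beta chains, averaged 5.93 ± 0.09 in thymus CCR7+ and 5.31 ± 0.14 in thymus CCR7- cells (SD, n = 3 each), with a log2 fold change of 0.63 (SE 0.17, adjusted p = 0.00981). After polyI:C Il3ra rose by 0.68 (SE 0.17, adjusted p = 0.00461), and in untreated spleen it had 0.27 (adjusted p = 0.249). Il5ra, the IL-5 binding chain, rose by 0.48 in thymus (adjusted p = 0.0177) but averaged only 4.36 there, close to the filter at 4.39. Csf3r, Pdgfra and Pdgfrb were not called in any of the 3.

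Signal transducers of these receptors moved both ways. Of all tested genes 16.8%, 12.3% and 18.4% were called higher in thymus, untreated spleen and after polyI:C. Those called lower were 20.4%, 24.1% and 28%. Of 17 tested, 7 rose and 3 fell in thymus, 3 rose and 3 fell in untreated spleen, and 4 rose and 4 fell after polyI:C, and the list medians were 0.0153, 0.0773 and 0.0597 in that order of settings, beside medians of -0.0596, -0.0322 and 0.0193 over all tested genes. Stat5a, a main target of the beta chains, rose by 0.94 in thymus (adjusted p = 0.0304) and 0.96 in untreated spleen (adjusted p = 0.0276) and had 0.48 after polyI:C (adjusted p = 0.233). Stat3, used by Flt3 among others, rose by 1.56 in thymus and 1.05 after polyI:C and had 0.60 in untreated spleen, which was not called (adjusted p = 0.2). Pik3r1, a regulatory subunit of PI3 kinase, rose by 1.43, 1.10 and 1.54 in thymus, untreated spleen and polyI:C spleen. Plcg2, a phospholipase of receptor signalling, had log2 fold changes of -1.50, -1.10 and -2.13 in the same order, and the phosphatase gene Ptpn11 had -1.15, -1.09 and -1.08, all called. Fes, a tyrosine kinase of myeloid cells, had -1.07, -1.54 and -1.76, all called.

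Inhibitors of receptor signalling included Socs2, the gene with the largest rise of these lists in each of the 3 settings. Of 17 tested inhibitors and sheddases, 5 rose and 2 fell in thymus and 4 rose and 3 fell in untreated spleen. After polyI:C 6 rose and 4 fell. List medians were 0.244, 0.113 and 0.415 in that order. The shares of all tested genes called higher were 16.8%, 12.3% and 18.4%, and lower 20.4%, 24.1% and 28%. Socs2, a suppressor of cytokine signalling that is itself a STAT5 target, rose by 4.21, 5.08 and 5.22 in thymus, untreated spleen and polyI:C spleen (SE 0.28 each). Cish, on the same list, rose by only 0.39 in thymus and 0.42 after polyI:C. In untreated spleen Cish had 0.14 and was not called (adjusted p = 0.361). Spred1, an inhibitor of the Ras pathway, rose by 3.28, 3.29 and 3.96, and the adaptor gene Dok1 by 2.20, 1.44 and 2.00. The ubiquitin ligases that mark activated receptors for breakdown moved apart, Cblb rising by 2.74, 1.80 and 1.84 while Cbl had -1.60, -2.06 and -2.51. Inpp5d, the lipid phosphatase SHIP1, fell in all 3 with -2.47, -2.30 and -3.06. Dusp6, a phosphatase of ERK, had -2.16 in untreated spleen and -4.49 after polyI:C, both called, and -0.57 in thymus, which was not (adjusted p = 0.475). The difference of the thymic and untreated splenic change of Dusp6 was 1.59 (adjusted p = 0.347).

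**Figure D4:**
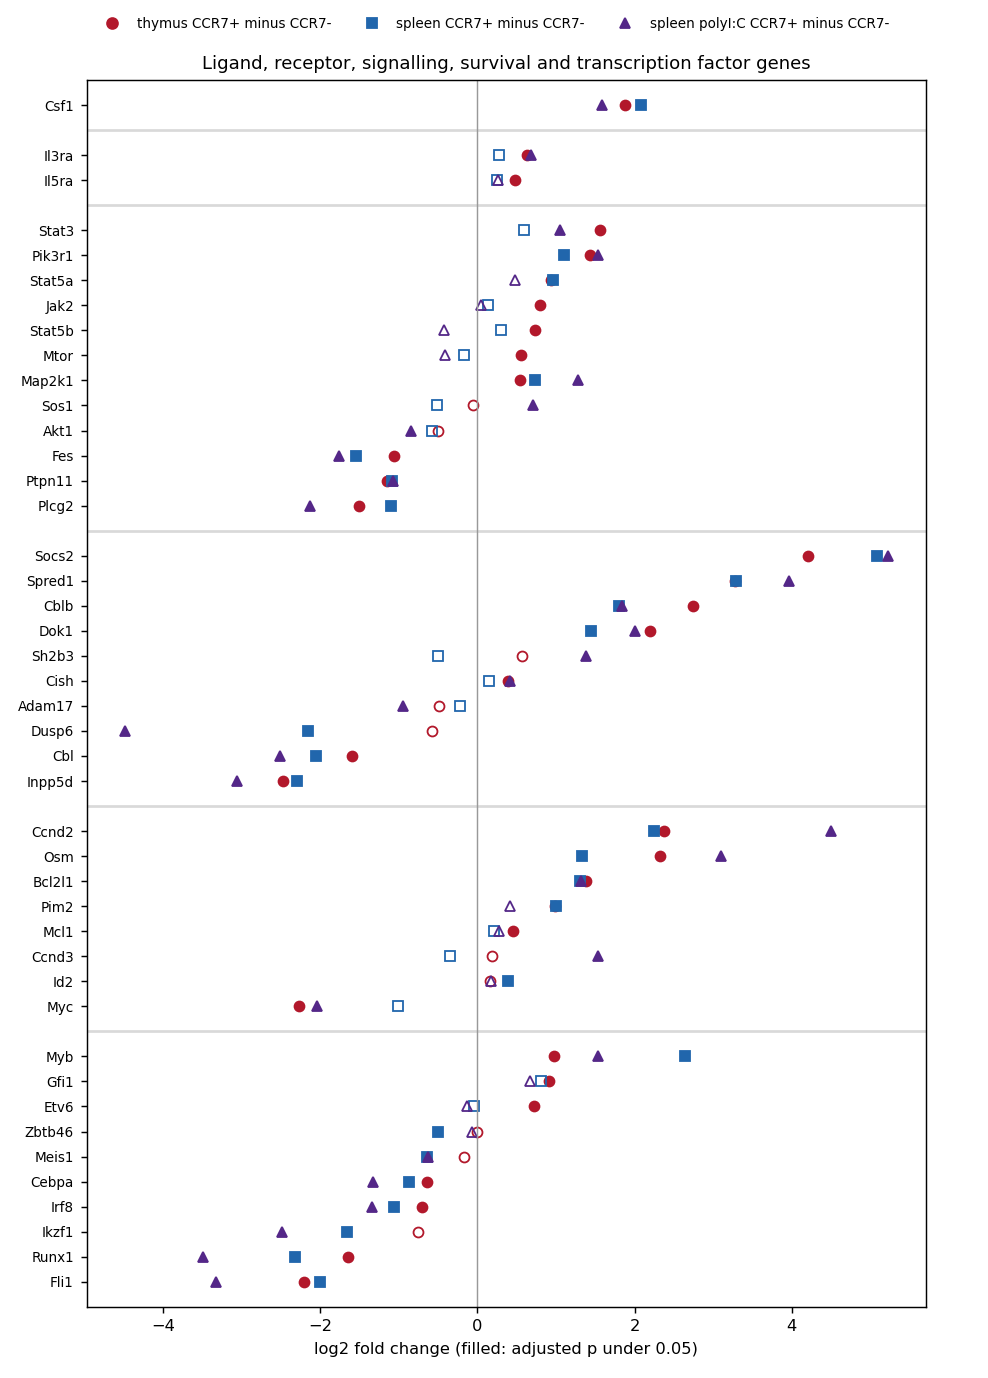
Log2 fold changes (x axis) of the ligand, partner, transducer, inhibitor, survival and transcription factor genes called in at least 1 maturation comparison (y axis), with a marker for each comparison, filled where called. Socs2 lies farthest right in all 3 comparisons (4.21, 5.08 and 5.22) and Dusp6 after polyI:C farthest left (-4.49).

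Survival and growth genes that act downstream of these receptors were taken as a list of 10, all tested. In thymus 5 rose and 1 fell, in untreated spleen 5 rose and 0 fell, and after polyI:C 4 rose and 1 fell. Of all tested genes 16.8%, 12.3% and 18.4% were called higher and 20.4%, 24.1% and 28% lower in that order. These 10 genes were chosen with earlier results of these data known, so the counts are no result about the list. Ccnd2, a cyclin of the G1 phase, rose by 2.38, 2.25 and 4.50, and Bcl2l1, which encodes the survival factor BCL-XL, by 1.38, 1.30 and 1.32 in thymus, untreated spleen and polyI:C spleen. Pim2, a survival kinase, rose by 0.99 and 1.0 in thymus and untreated spleen and had 0.41 after polyI:C, which was not called (adjusted p = 0.112). Osm, a cytokine gene induced by STAT5, rose by 2.33, 1.33 and 3.10 and more in thymus than in untreated spleen (difference 1.0, SE 0.23, adjusted p = 0.0271). Myc had -2.27 in thymus and -2.04 after polyI:C, both called, and -1.01 in untreated spleen (adjusted p = 0.209). Pim1 and Bcl2 were not called in any of these settings.

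Transcription factors of progenitors and DCs gave 14 tested genes. In thymus 3 rose and 4 fell, in untreated spleen 1 rose and 7 fell, and after polyI:C 1 rose and 6 fell. List medians were -0.308, -0.466 and -0.383 in that order. The shares of all tested genes called higher were 16.8%, 12.3% and 18.4%, and lower 20.4%, 24.1% and 28%. Fli1 had -2.21, -2.01 and -3.33, Runx1 -1.65, -2.33 and -3.49 and Irf8, which is required for XCR1+ DCs, -0.71, -1.06 and -1.34 in thymus, untreated spleen and polyI:C spleen, all called. Myb, a factor of haematopoietic progenitors, rose by 0.97, 2.64 and 1.53, less in thymus than in untreated spleen (difference -1.67, SE 0.35, adjusted p = 0.0184). Spi1, which encodes PU.1, was not called in any of the 3, with -0.43, -0.17 and 0.18.

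The genes whose pattern over the 15 arrays was most like that of each receptor were ranked by the root-mean-square (RMS) difference of centred log2 values. For Csf2rb these were Tmed4, Selplg, Cnppd1 and App, at 0.098 to 0.146, beside a spread of Csf2rb itself of 0.436. Selplg encodes PSGL-1, a selectin ligand of leukocytes. For Csf2rb2 they were Glis2, Lrrc42, Chrnb1 and Otud7b, at 0.182 to 0.195 (own spread 0.394). For Csf2ra they were Kmt5c, Atf6b, Gmip and Pex10 at 0.174 to 0.19 (own spread 0.346), and for Flt3 Ino80e, Mras, Tbcd and Dhx34 at 0.114 to 0.152 (own spread 0.209). For Csf1r they were Hyou1, Fermt3, Tram2 and Kcnn4 at 0.756 to 0.782 (own spread 1.27), and these 4 fell in all 3 settings, by log2 fold changes from -2.45 for Tram2 in thymus to -1.25 for Fermt3 in untreated spleen.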

How the data were processed

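The values were log2 RMA signals deposited by the authors, made with RMA and the affy package per the submitters' processing notes, with versions and the set of arrays normalised together not given in the sources used here. Per the labels' protocols, 40 ng of RNA went through 2 rounds of amplification. RMA gives no detection calls, and the number of arrays limits the precision. Array medians ran from 4.86 to 5.00. Of 45101 probe sets 34958 carried 1 gene symbol. The filter kept genes that exceeded 4.39, the 40th percentile of the table, on 3 or more arrays.

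The tests used limma 3.58.1 (R 4.3.3), 5 group means fitted to 15 arrays, eBayes (10 residual and 4.01 prior degrees of freedom) and Benjamini-Hochberg adjustment in each of 8 comparisons. The code was tested on simulated data. Each probe set was also fitted as a feature of its own, over 29328 probe sets, an alternative chosen after seeing the data. The members and lists were chosen with earlier results of these data known. Named genes were the 6 members, the 4 genes most alike each called member, all ligands and related receptors, up to 3 called genes of each list per direction and comparison, and the sorting markers. Genes not called or outside that number that are named were chosen after their values were seen. Replicate numbers of the titles were taken to pair arrays between tissues, since deviations from group means of all 3 same-numbered pairs correlated at 0.524 to 0.574 in immature and at 0.42 to 0.59 in untreated mature cells, against -0.396 to -0.149 and -0.553 to 0.0152 for unlike numbers. The other 8 pairs of groups did not have all 3 correlations over 0.1. Deviations cancel within a group, so high same-number correlations force lower unlike ones, and the unlike values are no separate evidence of pairing. In other pairs of groups unlike numbers reached 0.482 (thymus CCR7- replicate 1 with untreated spleen CCR7+ replicate 2). With polyI:C replicate 2 the same thymus array had 0.485. The labels do not say what the numbers mark. A fit with this pairing was chosen after seeing the data. Alternatives were other filters, probe set rules, normalisations, eBayes settings, array weights, the compared groups only, a replicate block, and leaving out each array.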

Additional observations from a re-analysis of the deposited data

How the results depend on the processing

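Of 765 repeats of a receptor's change in a comparison under another setting, 714 kept direction and call, 22 lost a call, 8 gained one and 21 turned the direction, all 21 between values that were not called. Most of the changes repeated were not called in the main fit and so had no call to lose. Settings that altered only the filter or eBayes left the fold change as it was, so direction could not turn. The count of 714 is thus no measure of how stable the calls were. The count of receptors called after polyI:C, 4, ran from 2 to 4 when single arrays were left out, the lowest without spleen CCR7- replicate 1. Between polyI:C and untreated CCR7+ spleen cells the count, 0, was 1 when probe sets of a gene were averaged (Csf2ra, -0.52) and 0 to 1 with single arrays left out. In immature cells of thymus against spleen the count, 0, was 1 with array weights (Csf2rb2, 0.40). In mature cells of thymus against spleen it was 1 with the mean of probe sets (Csf2ra, -0.69) and 1 with the probe set of largest variance (Csf2ra, -0.95). Csf2rb lost its call in untreated spleen with the probe set of largest variance (0.44, adjusted p = 0.279), Csf2ra lost its call after polyI:C with the mean of probe sets (-0.34, adjusted p = 0.11) and with quantile normalisation repeated (-0.49, adjusted p = 0.0763), and Csf1r gained one there with the mean of probe sets (-1.16, adjusted p = 0.0398). The causes were not tested. Flt3 in untreated spleen lost its call under array weights, repeated normalisation, trend and robust eBayes, the compared groups alone, without any single spleen CCR7- array, without untreated spleen CCR7+ replicate 1 or 3, and under the replicate block.

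The direction turned for Csf2ra in untreated spleen, which had 0.18 with the mean of probe sets, 0.42 with the probe set of largest variance, 0.076 with quantile normalisation repeated, 0.053 with array weights and -0.28 to 0.13 with single arrays left out. It turned for Csf2ra in immature cells of thymus against spleen (-0.24 to 0.023 with single arrays left out). Between thymus CCR7+ and polyI:C spleen cells Csf2ra had -0.16 and -0.51 with the mean and the largest-variance probe set, Csf2rb had 0.034, 0.089 and 0.018 with these and with centring, and single arrays left out gave -0.084 to 0.042 for Csf2rb and -1.09 to 0.62 for Csf1r. The thymic minus splenic change of Csf2rb2 ran over -0.24 to 0.011 with single arrays left out.

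With the replicate numbers as a block in all groups, Flt3 in untreated spleen stood at -0.39 with adjusted p = 0.0515, and this block changed no other receptor's call. The block within pairs of tissues changed no receptor's call, while the genes called went to 2694 with it against 1660 without in mature cells, and to 990 against 433 in the difference between tissues.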

Other observations

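The log2 signal of Csf2rb minus that of Csf2rb2 on the same array, a quantity chosen after the values were seen and whose zero has no meaning because the probe sets differ, was 1.09, 1.0 and 1.42 in polyI:C CCR7+ spleen cells, 0.92, 0.15 and 0.45 in untreated CCR7+ and 0.90, 0.32 and 0.64 in CCR7- spleen cells. It was 0.39, 0.51 and 0.59 in thymus CCR7+ and 0.39, 0.11 and 0.35 in thymus CCR7- cells. Of 5 differences between groups, 4 had a two-sided exact permutation p of 0.1, the smallest that 3 arrays against 3 allow: polyI:C minus untreated CCR7+ spleen (0.67), polyI:C minus CCR7- spleen (0.55), thymus CCR7+ minus polyI:C spleen (-0.67) and thymus CCR7+ minus CCR7- (0.21). Untreated CCR7+ minus CCR7- spleen cells had -0.11 (exact p = 0.8). With the dimmer probe set of Csf2rb the same 5 differences, in this order 0.78, 0.48, -0.56, 0.23 and -0.30, had exact p from 0.2 to 0.5. With 3 arrays against 3, none of the 10 could pass 0.05 whatever the values, so these p-values decide nothing at that level.

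Limits of these data apply to all receptors. Signals are of transcripts, not of surface receptors, and the CD117 and CCR7 gates define the groups of every maturation comparison. The CCR7+ and CCR7- fractions differed in mean T cell marker signal in both tissues. Of 7 tested T cell genes 6 were called in thymus and 1 in each splenic comparison. In B cell markers the fractions differed in thymus and untreated spleen, while after polyI:C 0 of 4 were called. Dim probe sets have compressed changes. With 3 arrays a group, the spread of Csf1r between arrays leaves it wide intervals.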
